A study of Mus musculus with 16 samples.

Results

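The 8 genes that encode the subunits of the chaperonin CCT, also called TRiC, were followed in ribosome profiling (Ribo-seq) and RNA-seq of Hepa1-6 cells, a mouse hepatoma line. The genes are Tcp1, Cct2, Cct3, Cct4, Cct5, Cct6a, Cct7 and Cct8, taken by name from a table of 67139 transcripts of 22392 genes. Each gene was read from the transcript with the largest sum over all 16 libraries. The libraries come from 4 lines with 2 replicates each in both assays: WT cells and the clones KO1, KO2 and KO3, in which exon 5 of Eef1d was deleted with CRISPR-Cas9. Eef1d encodes the delta subunit of the translation elongation factor complex EEF1B, and the study asked whether loss of its exon 5 alters translation. Each KO line is a single-cell clone. KO1 and KO2 came from the same pair of guide plasmids (pS1 and pS4) and KO3 from pS2 and pS4. The 3 clones were all compared with the same WT libraries. All lines grew in the same medium, all lysates held cycloheximide and chloramphenicol, and RNA was taken from the lysate used for Ribo-seq.

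CCT is a double ring that folds newly made proteins of the cytosol with the energy of ATP. Each ring holds 1 copy of each of the 8 subunits, so the complex is assembled from equal numbers of all of them. Actin and tubulin are its best-known substrates, prefoldin hands them over, and phosducin-like proteins work with the complex as co-chaperones. Ribosome footprints count ribosomes on a coding sequence, and per codon they follow how much of each protein is being made. For an obligate complex, the footprints of the subunits can therefore be set against an equal share of 12.5% for each.

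An RNA-seq library held between 24726706 and 30748268 counts, and a Ribo-seq library between 2604223 and 11147904. The largest and the smallest Ribo-seq libraries were both of KO1. The CCT genes took from 0.476% to 0.533% of the RNA counts and from 0.654% to 0.699% of the footprint counts, with 1 transcript counted per gene. As a check of the genotype, the count on the Eef1d transcript with exon 5 was set against that on a transcript without it. It was 116% in both WT RNA-seq libraries and 89.8% to 92.6% in the 6 KO libraries, and in Ribo-seq 113% to 114% against 96.0% to 98.9%. A read on sequence that both transcripts share is counted on both. These percentages are therefore not the amount of exon 5 left, and reads on exon 5 alone were not counted. Of the hepatocyte markers, Alb had 8618 and 8724, Trf 8283 and 8002 and Afp 8216 and 8140 RNA counts in WT, whereas Apoa1, Apoh and Ttr had at most 14 in any library. The leukocyte, endothelial and fibroblast markers Ptprc, Pecam1 and Col1a1 reached 5, 25 and 38 RNA counts at most. Alb, Trf and Afp differed in RNA between every clone and WT, for example Trf by -1.74 in KO1 and Alb by 1.25 in KO3 on the log2 scale, so the clones also differ in other genes. Whether that bears on the CCT genes was not tested.

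The sequence around the start codon of each subunit is shown because it is where ribosomes begin on these mRNAs, whose footprints are compared below. The sequences were read from the genome at the start codons of the RefSeq models on GRCm38.p6, and the capitals mark the ATG. The interval given is that of the start codon.
Tcp1 (alpha subunit, chr17:12916566-12916568, plus strand): cgtttcctgaagATGgagggt
Cct2 (beta, chr10:117063706-117063708, minus strand): tccgtcggaaccATGgcttcc
Cct3 (gamma, chr3:88297236-88297238, plus strand): cgtcgtgccgccATGatgggc
Cct4 (delta, chr11:22990754-22990756, plus strand): accaaggtcgccATGccggag
Cct5 (epsilon, chr15:31601703-31601705, minus strand): agttcgtccaccATGgcgtcc
Cct6a (zeta, chr5:129787439-129787441, plus strand): gctaggccagccATGgcggcg
Cct7 (eta, chr6:85452122-85452124, plus strand): gccgcttccaagATGatgccc
Cct8 (theta, chr16:87495786-87495788, minus strand): tgcggccgagccATGgcgctt
All 8 have a purine at the third base before the ATG, as do 88.3% of 7986 genes whose start was read in the same way. A G follows the ATG directly in 5 of the 8 and in 54.7% of those genes. The 3 subunits without that G are Cct3, Cct4 and Cct7.

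The 8 genes lie on 8 different chromosomes, and their counted coding sequences differ little in length, from 523 codons in Cct6a to 547 in Tcp1. The coding sequences are spread over 11 to 16 exons. The encoded proteins are distant relatives: over the 21 pairs of 7 subunits, identity ran from 27.9% to 38.1% with a median of 34.0%. Cct6a was left out of that comparison because its RefSeq model on this build does not give a whole reading frame. That model has only 489 codons, and its translation stopped after 405 residues. The level of Cct6a per codon is therefore less certain than those of the others. Processed pseudogenes share sequence with some subunits. The windows searched for this came from the RefSeq models, so those of Cct6a came from its incomplete model. Of all 30-base windows of the coding sequence, 17.1% of those of Cct3, 12.3% of Cct7, 5.78% of Cct4, 4.45% of Tcp1 and 0.253% of Cct2 were also found elsewhere in the genome, and none of those of Cct5, Cct6a and Cct8. The study's read statistics list uniquely mapped reads as the last step, so reads from such windows may be missing from the counts, although whether the count tables hold only unique reads is not given in the sources used here.

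In WT cells the mRNAs of the complex were abundant but unequal. Levels are given here as read density, that is counts per 1000 codons and per 1000000 counts of the library, with TMM scaling within each assay. The mRNA of Cct5 was the most abundant, with densities of 2250 and 2217 in the 2 WT replicates, followed by Cct2 with 1436 and 1458 and Cct7 with 1344 and 1368. Cct3 had 1069 and 1059, Cct8 1033 and 993.6, Cct6a 981.9 and 1013, and Cct4 920.7 and 944.5. Tcp1 was the lowest, with 695.8 and 724.7. Replicates of neighbours in this order overlapped only for Cct8 and Cct6a. All 8 stood high among the 8205 genes with at least 50 RNA and 10 footprint counts in every library, at percentiles 91.6 to 97.1 of RNA density, whose median was 110.6.

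**Figure D1:**
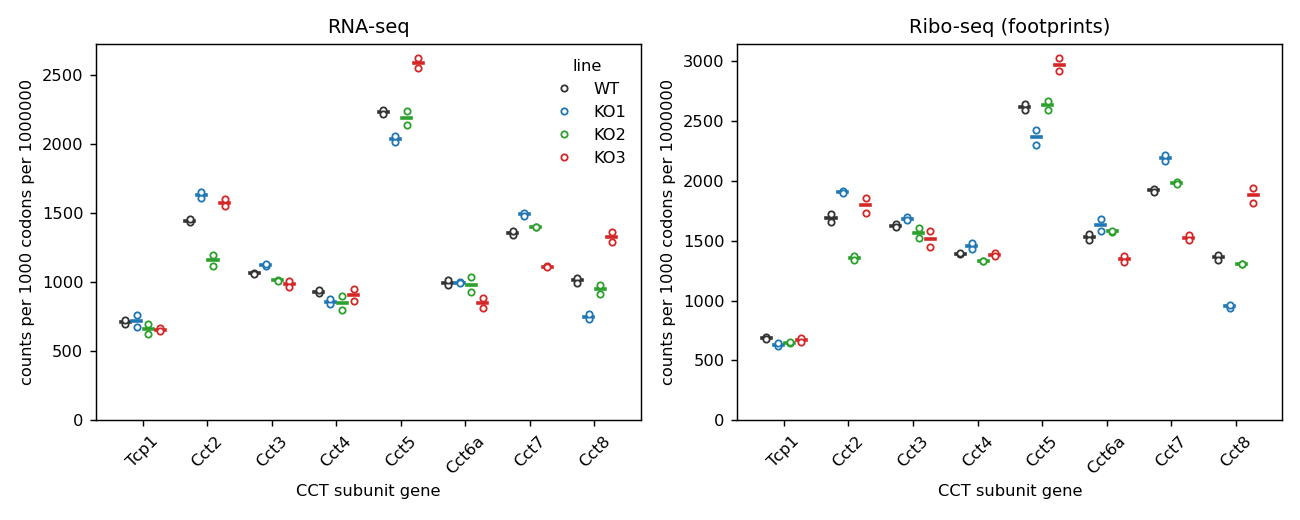
Read density of the 8 CCT genes in counts per 1000 codons and per 1000000 counts, in RNA-seq (left) and Ribo-seq (right); open circles are the 2 replicates of each line and bars their means. Cct5 is the highest and Tcp1 the lowest in every library, and Cct8 lies lowest in KO1 and highest in KO3 in both assays.

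Footprints followed a similar but not identical order. Cct5 again led with densities of 2644 and 2589 and Tcp1 was again last with 694.8 and 682.1. Between them, Cct7 had 1935 and 1907, Cct2 1723 and 1654, Cct3 1639 and 1610, Cct6a 1553 and 1506, Cct4 1385 and 1399, and Cct8 1384 and 1335. No neighbours overlapped in this order, although Cct4 and Cct8 came within 1 unit of each other. The footprint percentiles among the 8205 genes ran from 90.0 to 96.8. With 2 replicates, these orders describe the libraries and were not tested.

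Relative to an equal share of 12.5%, Cct5 was overrepresented and Tcp1 underrepresented. Cct5 held 22.9% ± 0.319 of the RNA density of the 8 subunits in WT and 20.4% ± 0.0094 of their footprint density (mean ± SD, n = 2). Tcp1 held 7.28% ± 0.184 of the RNA and 5.37% ± 0.0123 of the footprints. The other 6 subunits lay between 9.56% and 14.8% of the RNA and between 10.6% and 15.0% of the footprints. Cct3 went from 10.9% of the RNA to 12.7% of the footprints, Cct4 from 9.56% to 10.9%, Cct6a from 10.2% to 11.9% and Cct7 from 13.9% to 15.0%. Cct2 went the other way, from 14.8% to 13.2%, while Cct8 stayed near 10.4% and 10.6%.

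**Figure D2:**
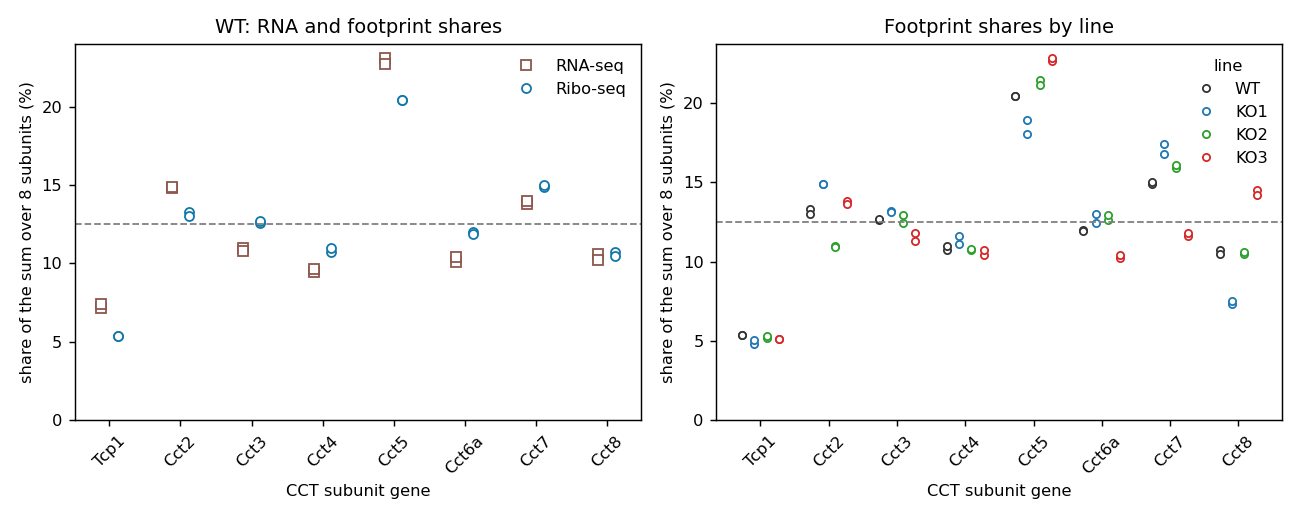
Share of each subunit in the summed read density of the 8 subunits, in percent; left, RNA-seq and Ribo-seq in WT, right, Ribo-seq in the 4 lines, with 2 replicates each and the equal share of 12.5% as a dashed line. Cct5 stands at 20.4% and Tcp1 at 5.37% of the WT footprints, and Cct8 runs from 7.42% in KO1 to 14.4% in KO3.

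The evenness of the subunits was summarised per library as the SD of log2 read density over the subunits. For RNA this SD ran from 0.492 to 0.62 over the 8 libraries, and for footprints from 0.548 to 0.657. The ratio of the highest to the lowest subunit was 2.7 to 3.95 in RNA and 3.56 to 4.44 in footprints, always between Cct5 and Tcp1. Footprints were more even than RNA in 2 of the 8 lysates. The same count was 7 of 8 for the 14 subunits of the 20S proteasome and 8 of 8 for the 6 subunits of prefoldin, other complexes with equal numbers of their subunits. Without Tcp1, left out after its low values were seen, the SD in WT fell from 0.445 in RNA to 0.325 in footprints, and it was also lower in footprints in KO1 (0.437 against 0.524), KO2 (0.370 against 0.466) and KO3 (0.394 against 0.561). Leaving out a member at the edge of a set tends to narrow its spread, so these values are a description.

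The translation efficiency (TE) of a gene, its footprint density over its RNA density, separated the subunits in WT. Tcp1 had the lowest log2 TE (-0.002 and -0.087 in the 2 replicates), followed by Cct2 (0.263 and 0.182) and Cct5 (0.233 and 0.224). Then came Cct8 (0.422 and 0.426), Cct7 (0.526 and 0.479), Cct4 (0.589 and 0.566), Cct3 (0.617 and 0.605) and Cct6a (0.662 and 0.572). Replicates overlapped between Cct2 and Cct5, between Cct6a and Cct3 and between Cct6a and Cct4, and between no other pair of subunits. The 3 subunits without a G after the ATG lay among the 4 highest, and Cct6a, which has one, had the highest mean. Whether the base after the ATG bears on TE was not tested. Among the 8205 genes, whose median log2 TE was -0.142, Tcp1 stood at percentile 55.5 and the other 7 between 70.6 and 88.9. Both subunits with the most RNA, Cct5 and Cct2, thus had fewer footprints per mRNA than the other subunits except Tcp1, a difference given here as a description. The codon length cancels in TE, so the uncertain length of Cct6a does not enter it.

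The 8 mRNAs did not move together in the exon 5 KO clones. The RNA fold changes against WT were tested with edgeR, and calls were made at a Benjamini-Hochberg adjusted p under 0.05 over all transcripts. In KO1 5 of the 8 genes were called, 2 higher and 3 lower, where 40.6% of all transcripts were called. In KO2 it was 1 of 8, lower, against 15.4%, and in KO3 5 of 8, 3 higher and 2 lower, against 37.0%. The shares of all transcripts count several transcripts of many genes, while each CCT gene was read from 1, so they are not an exact match. For the 8 genes the median RNA change in KO1, KO2 and KO3 was 0.02, -0.08 and -0.07 on the log2 scale, with medians over all transcripts of 0.002, -0.004 and 0.0. As these are bulk lysates, fewer cells with an mRNA and less of it per cell cannot be told apart.

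Cct8, the theta subunit, changed most and in opposite directions in 2 clones. Its RNA density was 1033 and 993.6 in WT, with KO1 at 731.9 and 771.8, KO2 at 981.7 and 917.8 and KO3 at 1364 and 1293. The KO1 values lay below and the KO3 values above all others, without overlap. Its RNA was 0.747-fold that of WT in KO1 (log2 fold change -0.42, standard error 0.0446, edgeR adjusted p = 8.89e-12) and 1.31-fold in KO3 (0.39, standard error 0.0451, adjusted p = 2.66e-10). In KO2 the change was -0.09 (adjusted p = 0.234), and without KO2 replicate 1 it was -0.14. The footprints did the same, with densities of 1384 and 1335 in WT, with KO1 at 941.8 and 959.4, KO2 at 1307 and 1305 and KO3 at 1943 and 1816. They were 0.703-fold in KO1 (-0.51, standard error 0.0658, edgeR adjusted p = 1.35e-10) and 1.36-fold in KO3 (0.45, standard error 0.0582, adjusted p = 1.05e-08).

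Cct2, the beta subunit, was the 1 member called in KO2. Its RNA density was 1436 and 1458 in WT, with KO1 at 1608 and 1655, KO2 at 1201 and 1115 and KO3 at 1601 and 1553. All KO2 values lay below those of WT, and those of KO1 and KO3 above. In KO2 its RNA was 0.800-fold that of WT (-0.32, standard error 0.0474, edgeR adjusted p = 2.44e-05) and its footprints, at 1370 and 1335 against 1723 and 1654, were 0.798-fold (-0.33, standard error 0.0583, adjusted p = 0.000173). In KO1 its RNA rose by 0.18 (edgeR adjusted p = 9.35e-05) and its footprints by 0.19 (adjusted p = 0.0178). In KO3 its RNA rose by 0.13 (edgeR adjusted p = 0.0142), while its footprints had a change of 0.07 (adjusted p = 0.439). The KO3 RNA call was lost without either WT replicate, and the KO1 footprint call with DESeq2 and without WT replicate 1, WT replicate 2 or KO1 replicate 1.

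Cct7, the eta subunit, fell in KO3 and rose in KO1. Its RNA density was 1344 and 1368 in WT, with KO1 at 1501 and 1482, KO2 at 1403 and 1402 and KO3 at 1119 and 1108. No line overlapped another. Its RNA in KO3 was 0.823-fold that of WT (-0.28, standard error 0.0438, edgeR adjusted p = 5.78e-07), and its footprints, at 1548 and 1503 against 1935 and 1907, were 0.783-fold (-0.35, standard error 0.0571, adjusted p = 1.86e-06). In KO1 the RNA rose by 0.15 (edgeR adjusted p = 0.00165) and the footprints by 0.20 (adjusted p = 0.00974). The KO1 calls were lost without WT replicate 1, and the footprint call also without WT replicate 2 and with DESeq2.

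Cct5, the epsilon subunit and the most abundant, and Cct6a, the zeta subunit, also moved in KO3. Cct5 RNA density was 2250 and 2217 in WT, with KO1 at 2013 and 2061, KO2 at 2244 and 2138 and KO3 at 2626 and 2555. Its RNA rose by 0.22 in KO3 (standard error 0.0391, edgeR adjusted p = 1.03e-05) and fell by 0.12 in KO1 (standard error 0.0362, adjusted p = 0.00481), and only the KO2 values overlapped those of WT. Its footprints rose by 0.16 in KO3 (edgeR adjusted p = 0.0259) and had a change of -0.13 in KO1 (adjusted p = 0.108). The KO1 RNA call was lost without WT replicate 1, and the KO3 footprint call without WT replicate 1, WT replicate 2 or KO3 replicate 1 and with DESeq2. Cct6a RNA density was 981.9 and 1013 in WT and 886.7 and 817.0 in KO3, without overlap, or 0.856-fold that of WT (edgeR adjusted p = 0.000161). Its KO3 footprints, at 1368 and 1322 against 1553 and 1506, were 0.867-fold (edgeR adjusted p = 0.00571), a call that was lost with DESeq2 and without WT replicate 1.

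Tcp1, Cct3 and Cct4 moved least. Cct4, the delta subunit, had RNA densities of 920.7 and 944.5 in WT and 842.2 and 877.8 in KO1, a fall of 0.11 on the log2 scale (edgeR adjusted p = 0.0469). That call was lost in 6 of 11 alternative analyses, among them those without either WT replicate and without KO1 replicate 1. In KO2 the RNA change of Cct4 was -0.13 (edgeR adjusted p = 0.106), and without KO2 replicate 1 the fall was larger, at -0.22. With a replicate block, Cct4 was called lower in KO2 as well (-0.13, edgeR adjusted p = 0.0365). Tcp1, the alpha subunit, and Cct3, the gamma subunit, were called in no clone in either assay, with changes between -0.12 and 0.09. They were called in RNA in some alternative analyses. Tcp1 was lower in KO2 without KO2 replicate 1 (-0.19) and in KO3 without KO3 replicate 1 (-0.13). Cct3 was lower in KO3 without KO3 replicate 1 (-0.13) and higher in KO1 with a replicate block (0.09, edgeR adjusted p = 0.0149).

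Among footprints, 3 of 8 genes were called in KO1 (23.0% of all transcripts), 2 higher and 1 lower. In KO2 1 gene was called (8.72% of all transcripts), and in KO3 4 were (24.5% of all transcripts), 2 higher and 2 lower. The 8 footprint calls were also RNA calls of the same sign in the same clone. The shallowest library, KO1 replicate 2 of Ribo-seq with 2604223 counts, had 414 counts on Tcp1, the lowest of any subunit in any library.

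**Figure D3:**
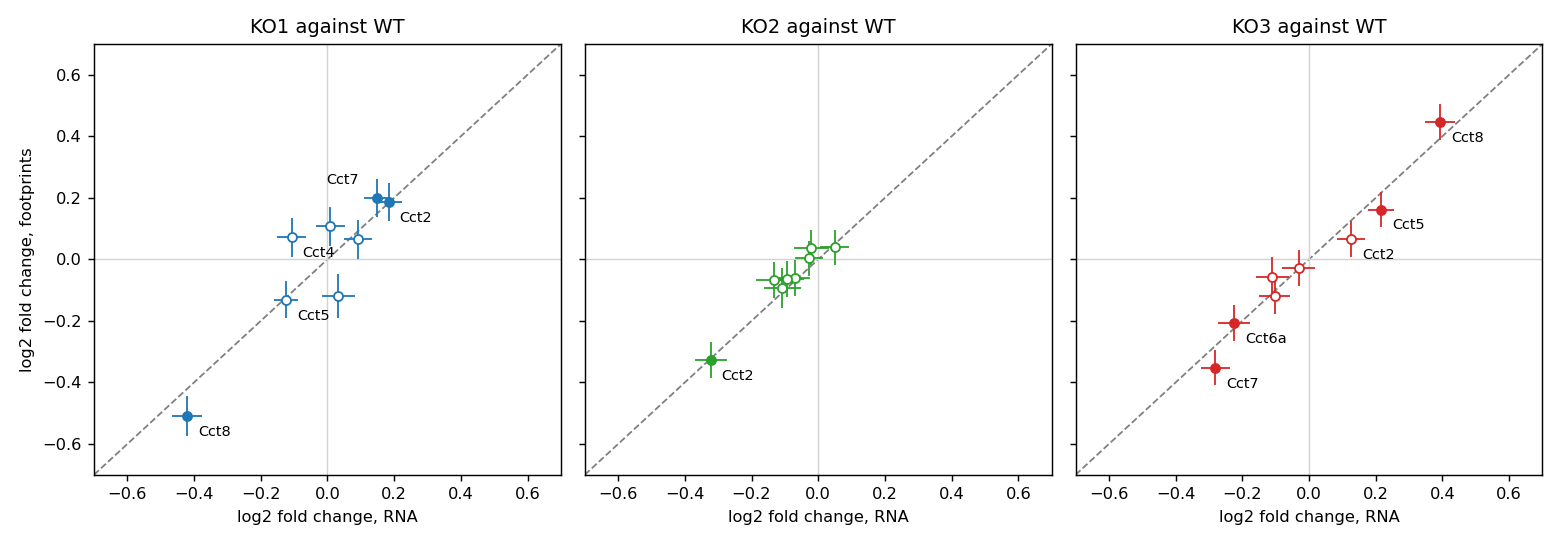
Log2 fold change of footprints (vertical) against that of RNA (horizontal) for the 8 CCT genes in each clone, with standard errors as bars and the line of equal change dashed. Filled points are genes called in both assays and named open points are called in 1; Cct8 lies at -0.42 and -0.51 in KO1 and at 0.39 and 0.45 in KO3, near the dashed line.

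No subunit passed the test for a change in TE. With the edgeR interaction of genotype and assay, 0 of 8 genes were called in KO1 (0.168% of all transcripts), 0 in KO2 (0.0157%) and 0 in KO3 (0.0939%). At an unadjusted p under 0.05 there were 1, 0 and 0 genes, and DESeq2 called 0 in each clone. The 1 gene was Cct4 in KO1, whose log2 TE was 0.589 and 0.566 in WT and 0.767 and 0.751 in KO1, a change of 0.17 (95% interval 0.02 to 0.32, edgeR adjusted p = 0.569). The median TE change of the 8 genes was -0.007, 0.013 and -0.005. The 95% intervals of all 24 gene and clone pairs lay within -0.33 and 0.32, so a change of TE under that size could have gone undetected. For Cct8 the TE change was -0.09 in KO1 (-0.25 to 0.06) and 0.05 in KO3 (-0.09 to 0.20). For Cct2 in KO2 it was -0.01 (-0.17 to 0.14), and for Cct7 in KO3 -0.07 (-0.21 to 0.07).

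The changes in RNA and footprints differed between the clones. The edgeR test that the 3 clones are equal called 7 of 8 genes in RNA, all but Cct4, where 66.4% of all transcripts were called. In footprints it called 6 of 8, all but Cct4 and Tcp1, against 51.5%, and in TE 0 of 8, against 1.06%. The range over the clones was widest for Cct8, 0.81 in RNA and 0.96 in footprints on the log2 scale. No gene was called in the same direction in all 3 clones. Cct2, the 1 gene called in RNA in each of them, was higher in KO1 and KO3 and lower in KO2.

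With these changes, the shares of the subunits in the RNA and in the footprints shifted within each clone; the protein complex itself was not measured. The share of footprints that moved from one subunit to another, measured as the summed absolute differences divided over both sides, was 5.32% to 5.84% between KO1 and WT libraries, 2.72% to 2.87% for KO2 and 6.34% to 6.90% for KO3. Between replicates it was 0.520% to 1.54%. In RNA the same measure was 4.56% to 5.43% for KO1, 2.57% to 3.56% for KO2 and 6.18% to 7.32% for KO3, against 0.988% to 1.67% between replicates. In every clone both assays thus moved beyond the range between replicates. The footprint share of Cct8 was 10.7% and 10.5% in WT, with KO1 at 7.32% and 7.53%, KO2 at 10.5% and 10.6% and KO3 at 14.5% and 14.2%. That of Cct2 was 13.3% and 13.0% in WT and 11% and 10.9% in KO2. That of Cct7 was 14.9% and 15.0% in WT, 16.8% and 17.4% in KO1 and 11.6% and 11.8% in KO3. Where 1 subunit falls the shares of the others rise by construction, so the shares are a description and carry no test.

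Over the 16 libraries, with each assay centred on its own mean, the subunits did not vary as 1 group. The Pearson correlation of each gene with the mean of the other 7 was 0.64 for Cct4, 0.45 for Tcp1 and 0.11 for Cct2. It was 0.06 for Cct5, -0.04 for Cct3, -0.45 for Cct6a, -0.54 for Cct8 and -0.71 for Cct7. Libraries of the same lysate and line are not independent, so no p-value is given. The 4 genes most like the mean of the complex among 8197 genes were Rwdd1 (r = 0.84), Rrn3 (0.82), Pwp1 (0.82) and Vbp1 (0.81). Some members went opposite ways, such as Cct5 and Cct7 (r = -0.953), so likeness to the mean is not likeness to each subunit. Vbp1 is a subunit of prefoldin, and Rrn3 an initiation factor of RNA polymerase I.

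Because the 8 genes lie on 8 chromosomes, the RNA change of each was set beside that of the other genes on its chromosome, a comparison chosen after the data were seen. Cct8 in KO1 (-0.42) lay on chromosome 16, where 353 other genes had a median change of -0.32 and 55.5% were called lower. This was the third lowest of the 20 chromosome medians in that clone. Cct2 in KO2 (-0.32) lay on chromosome 10, whose 556 other genes had a median of -0.26 and which was the lowest of 20. Cct7 in KO3 (-0.28) lay on chromosome 6, whose 522 other genes had a median of -0.33, again the lowest of 20. Each of these 3 subunits lay within the middle 50% of the genes on its chromosome. In total 10 of the 11 RNA calls of CCT genes had the sign of their chromosome's median. Over all genes 73.2% of 12647 calls had it, so a shared sign was common beyond the CCT genes. At least 50% of all genes on a chromosome share the sign of its median by construction. That floor does not hold for the called genes alone, so these counts are a description. Among the 10 was Cct5 in KO3, whose chromosome had a median of only 0.004. The exception was Cct4 in KO1, at -0.11 on chromosome 11 with a median of 0.11.

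**Figure D4:**
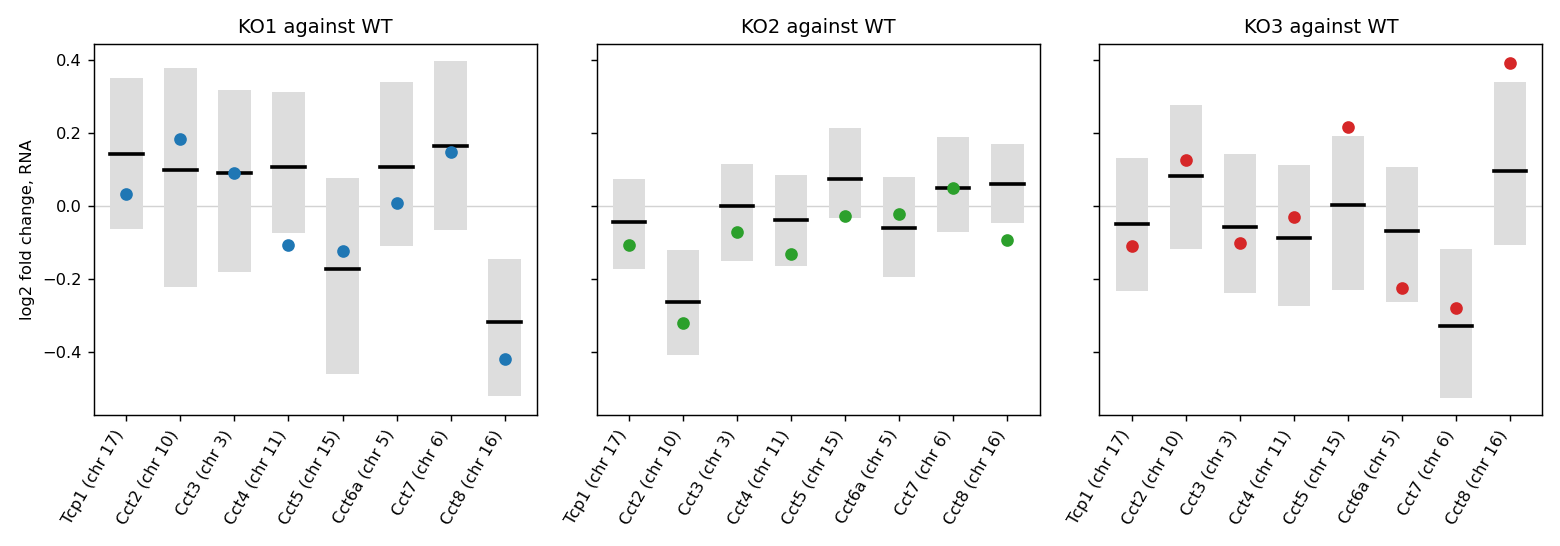
Log2 fold change of RNA for each CCT gene (coloured point) beside the other genes on its chromosome (black line, median; grey box, middle 50% of genes) in each clone. Cct8 in KO1, Cct2 in KO2 and Cct7 in KO3 lie within the boxes of chromosomes whose medians are -0.32, -0.26 and -0.33.

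Cct8 in KO3 differed from the middle of its chromosome, at 0.39 against a median of 0.10 over 357 other genes. Its neighbours within 5 Mb, 37 genes, had a median of 0.31. Along chromosome 16 in KO3, the 5 Mb bins with at least 20 genes that lie over 50 Mb before Cct8 had medians from -0.004 to 0.06. The bins with at least 20 genes that start at Cct8 or after it had medians of 0.31 and 0.29. In KO1 the bins with at least 20 genes had medians from -0.42 to -0.10 along the whole chromosome, and 36 neighbours within 5 Mb of Cct8 had a median of -0.42. In KO2 the same kind of bins lay between 0.007 and 0.12. Cct5 in KO3, at 0.22, had no such surroundings, since 24 neighbours within 5 Mb had a median of -0.002. Cct5 is on chromosome 15, as is Eef1d itself, 44.3 Mb away. DNA copy number was not measured in these samples, and the part of the chromosome in the changes of the subunits was not tested.

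**Figure D5:**
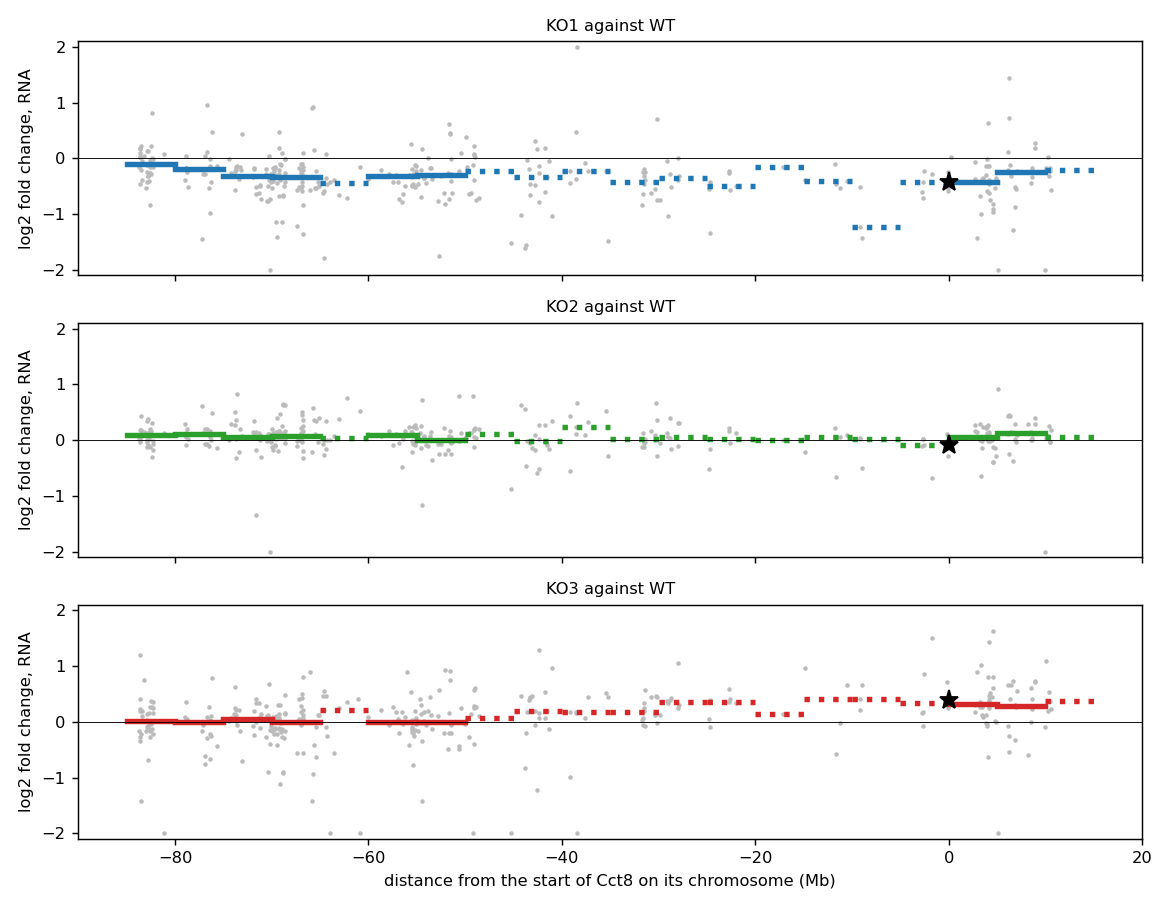
Log2 fold change of RNA along the chromosome of Cct8 in each clone, against the distance from the start of Cct8 in Mb; grey points are genes, drawn at 2 or -2 where beyond, coloured lines are medians of 5 Mb bins (dotted under 20 genes) and the star is Cct8. In KO3 the bins rise from about 0.008 at the far end to 0.31 beside Cct8, and in KO1 they lie below 0 throughout.

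The partners of CCT, too, were called in both directions. For all lists that follow, the shares of all transcripts called in KO1, KO2 and KO3 were 40.6%, 15.4% and 37.0% in RNA and 23.0%, 8.72% and 24.5% in footprints. Of the 6 prefoldin subunits, 5 had a called RNA change in KO1, and KO2 and KO3 had 1 each. In KO1 Pfdn6 (0.46) and Pfdn2 (0.32) rose and Pfdn5 (-0.28), Pfdn4 (-0.26) and Pfdn1 (-0.19) fell. Pfdn2 (0.30) rose in KO2 and Pfdn4 (0.25) in KO3. In footprints Pfdn4 (-0.325) fell in KO1 and Pfdn2 (0.27) rose in KO2. The median RNA change of prefoldin was -0.12, 0.05 and 0.07 in the 3 clones. Of the 3 phosducin-like co-chaperones, Pdcl3 (0.37) and Txndc9 (0.37) rose in RNA in KO2, and their footprints rose by 0.56 and 0.33. In KO1 0 of the 3 passed in RNA, with unadjusted p-values from 0.232 to 0.61, and Pdcl3 rose in footprints (0.29). In KO3 Pdcl3 fell in RNA (-0.18). No gene of these lists passed in TE.

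Tubulins and actins, the substrates, were called in both directions in RNA in each clone. Of 12 tested in RNA, 8 were called in KO1 (5 higher), 3 in KO2 (2 higher) and 9 in KO3 (7 higher). Of 13 tested in footprints, 4 were called in KO1 (3 higher), 4 in KO2 (all lower) and 3 in KO3 (all higher). Beside the shares of all transcripts called, 40.6%, 15.4% and 37.0% in RNA and 23.0%, 8.72% and 24.5% in footprints, the counts are a description of the list. Their median RNA change was 0.06, -0.03 and 0.12. Actg1, the cytoplasmic gamma-actin, fell by 0.94 in RNA and 0.44 in footprints in KO1, and its TE rose by 0.49 (standard error 0.0632, edgeR adjusted p = 1.92e-06). It was the 1 gene of the list called in TE in any clone. Tubb4b, a beta-tubulin, had RNA changes of 0.22, -0.30 and 0.46 in KO1, KO2 and KO3, all called, and Tubb2a of 0.30 in KO1 and 0.33 in KO3. Tubg1, the gamma-tubulin that nucleates microtubules, rose by 0.40 in KO1. Tubulin and actin genes are close relatives, so reads may be divided between them in ways that the counts do not show.

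The remaining lists were small. Of 6 tubulin folding cofactors, which act on tubulin after CCT, RNA was called in 3 in KO1 (Tbca 0.38, Tbcb -0.25 and Tbcd 0.18), 0 in KO2 and 2 in KO3 (Tbcc 0.38 and Tbcb 0.26). In KO2 1 of them, Arl2, had an unadjusted p under 0.05 (0.0222, edgeR adjusted p = 0.106), and the median change was 0.006. Of 10 other reported clients tested in RNA, 4 were called in KO1 (3 higher), 3 in KO2 (all lower) and 4 in KO3 (all higher). Beside the shares of all transcripts (40.6%, 15.4% and 37.0%), which count several transcripts of many genes, these counts are a description of the list. Vhl (0.67) and Fzr1 (0.51) rose and Gnb1 (-0.26) fell in KO1. In KO2 Mlst8 (-0.60), Rptor (-0.32) and Fzr1 (-0.32) fell, and in KO3 Rptor (0.63), Gnb1 (0.46) and Gnb2 (0.41) rose. Rptor is a component of mTORC1, and Gnb1 and Gnb2 are beta subunits of G proteins. The mitochondrial chaperonin genes Hspd1 and Hspe1 were called in RNA in all 3 clones, Hspe1 with changes of 0.41, 0.38 and -0.40, and the TE of Hspe1 fell by 0.35 in KO1 (edgeR adjusted p = 0.0374). Of the 14 genes of the 20S proteasome, 9 were called in RNA in KO1 (7 higher), 2 in KO2 (both lower) and 6 in KO3 (4 higher), and 0 in TE. The testis paralog Cct6b had 0 to 6 RNA counts in any library and Cct8l1 0 to 1, so neither was tested in RNA. Of the distant relatives that help to assemble the BBSome of the cilium, Bbs10 rose in KO1 (0.81) and Bbs12 fell in KO3 (-0.74). Bbs10 was at low counts, with 12 to 49 RNA counts over the libraries, and Bbs12 had 143 to 309.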

How the data were processed

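RNA-seq and Ribo-seq counts were analysed for 16 libraries of WT and 3 exon 5 KO Hepa1-6 lines. The deposited values were raw counts per transcript, not normalized or pooled. Per the labels and methods, the authors trimmed adapters with fastp 0.21.0, removed reads of noncoding RNA, and aligned to mm10 with STAR 2.7.0a on the GENCODE vM23 annotation. They counted reads at the A-site on coding sequences without the first and last 5 codons. A read that fits several transcripts is counted on each. The labels name polyA RNA and the protocol rRNA depletion, which was not settled from the counts. The deposited length column, a number of codons, already leaves out 10 codons.

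Each line and assay formed a group with 2 replicates from the labels. The study calls its replicates biological, but neither the labels nor the methods say whether they were separate cultures, so p-values measure only the spread between these samples, which may be technical. Changes were tested with edgeR 4.0.16 in R 4.3.3 (quasi-likelihood test, TMM within assay, filterByExpr, Benjamini-Hochberg over all transcripts, threshold 0.05), each clone with WT. TE was the interaction of genotype and assay. The scripts were tested on simulated data. Alternatives were DESeq2 1.42.0, its size factors, other filters, 1 transcript per gene, a common fit, blocks and left-out replicates. RNA-seq and Ribo-seq libraries of 1 lysate deviated together (r = 0.237 in WT, 0.284 in KO1, 0.120 in KO2 and 0.112 in KO3 over 4014 genes), the pairing stated by the protocol. The main TE test and its intervals did not use this pairing. With the lysate as a block, the test again called no CCT gene in TE. Read densities used the length column, and loci came from GENCODE vM21 and RefSeq on GRCm38. All 8 members were named. Of the genes of the fixed lists called in at least 1 clone, at most 6 per list were to be named, and not all of these are named here. The 5 genes most like the mean of the complex were also to be named, of which 1 is not reported here. The members and lists were chosen with earlier results of these data known.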

Additional observations from a re-analysis of the deposited data

Results flagged for a closer look

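For 7 of the 8 CCT genes in RNA and 6 in footprints, the change against WT differed between the 3 clones, by the edgeR test that the clones are equal. For RNA the adjusted p-values of this test were 3.99e-18 for Cct8, 3.32e-13 for Cct2, 5.35e-11 for Cct7, 1.09e-08 for Cct5, 0.000192 for Cct6a, 0.000514 for Cct3 and 0.026 for Tcp1. For footprints the edgeR adjusted p-values were 1.29e-25 for Cct8, 3.05e-13 for Cct7, 5.98e-12 for Cct2, 2.13e-05 for Cct6a, 3.63e-05 for Cct5 and 0.0299 for Cct3. The changes themselves ran from -0.42 to 0.39 for Cct8, from -0.32 to 0.18 for Cct2 and from -0.28 to 0.15 for Cct7 in RNA, on the log2 scale. The 3 clones share their WT libraries, but this test compares the clones with each other. Groups of 2 samples were too small to test for outliers.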

How the results depend on the processing

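Of the alternatives, a length less 10 end codons could not be run as another setting, since the deposited length already leaves those codons out. All 19 calls of CCT genes kept their direction in 11 alternatives, and 11 of them were called in all 11, among them Cct8 in KO1 and KO3, Cct2 in KO2 and Cct7 in KO3 in both assays. With DESeq2, 1 gene was called in footprints in KO1 and 2 in KO3. The labels do not say what replicate numbers share across lines. Same-numbered libraries of 2 lines deviated together with r from -0.003 to 0.372 in RNA and from 0.097 to 0.201 in footprints, not over 0.1 in every pair, so a replicate block was kept as an alternative. With it, 2 CCT genes in place of 1 were called in RNA in KO2, Cct4 being added (-0.13, edgeR adjusted p = 0.0365). In KO1 it added Cct3 in RNA (0.09, edgeR adjusted p = 0.0149) and Cct5 in footprints (-0.13, edgeR adjusted p = 0.0346), and no call was lost. Without 1 replicate, the calls ranged from 2 to 5 in RNA in KO1 (2 without WT replicate 1), 1 to 4 in RNA in KO2 (4 without KO2 replicate 1), 1 to 3 in footprints in KO1 (1 without either WT replicate) and 2 to 4 in footprints in KO3. No TE value of a CCT gene was called in 288 alternative values. The smallest edgeR adjusted p was 0.21, for Cct4 in KO1 with the lysate as a block.

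Medians over the 8 genes ranged, without 1 replicate, from -0.017 to 0.049 (RNA, KO1), -0.122 to -0.035 (RNA, KO2) and -0.115 to -0.014 (RNA, KO3), and for TE from -0.034 to 0.02 in KO1, -0.019 to 0.052 in KO2 and -0.035 to 0.014 in KO3. The SD of log2 density without Cct6a was 0.532, 0.59, 0.558 and 0.635 in RNA and 0.593, 0.69, 0.626 and 0.644 in footprints, for WT, KO1, KO2 and KO3. Without Tcp1 it was 0.445, 0.524, 0.466 and 0.561 in RNA and 0.325, 0.437, 0.37 and 0.394 in footprints. With windows found elsewhere left out of the length, it was 0.587 in RNA of KO3 and 0.561, 0.665, 0.597 and 0.588 in footprints.

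Changes that were not called and lay near 0 turned sign. With 1 transcript per gene, Cct6a RNA in KO1 was -0.003, and Cct2 TE was 0.004 in KO1 and 0.003 in KO2. Cct2 TE in KO1 was also 0.004 without a filter and 0.002 with the lysate as a block. Without 1 replicate, RNA changes ranged from -0.013 to 0.03 for Cct6a and -0.052 to 0.114 for Tcp1 in KO1, from -0.1 to 0.056 for Cct6a and -0.065 to 0.01 for Cct5 in KO2, and from -0.1 to 0.04 for Cct4 in KO3. The Cct5 footprint change in KO2 ranged from -0.025 to 0.032. TE changes in KO1 ranged from -0.038 to 0.037 for Cct2 and -0.072 to 0.035 for Cct5. In KO2 they ranged from -0.046 to 0.028 for Cct2, -0.036 to 0.005 for Cct7, -0.069 to 0.089 for Tcp1, -0.034 to 0.044 for Cct3, -0.018 to 0.143 for Cct4, -0.021 to 0.133 for Cct6a and -0.019 to 0.068 for Cct8. In KO3 they ranged from -0.042 to 0.008 for Cct3, -0.061 to 0.075 for Cct4 and -0.024 to 0.077 for Cct6a. The cause of these moves was not tested. Ribo-seq depth was lowest in KO1 replicate 2 (2604223 counts), without which no footprint call in KO1 was lost.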

Other observations

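Tubb3, a neuronal beta-tubulin on the list of substrates, had 0 to 2 RNA counts in any library but 41 to 262 footprint counts, with 183 and 139 in WT. It was therefore tested in footprints and not in RNA.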
